A study of Mus musculus with 6 samples.

Results

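The cytosolic ribosomal protein genes were examined in bone marrow-derived macrophages (BMDMs) from wild-type (WT) and PYK2 knockout (PYK2 KO) mice. They were taken from the deposited gene table by symbol: Rpl or Rps followed by a number, with or without a closing a, x or l, together with Rplp0, Rplp1, Rplp2 and Rpsa, and without symbols of the "-ps" type, which mark pseudogenes. The rule took 83 of the 55291 genes in the table, 51 of the large subunit (Rpl) and 32 of the small subunit (Rps). BMDMs are primary macrophages grown from flushed bone marrow, here for 7 days in medium with L929-conditioned medium as the source of the growth factor M-CSF. The 3 WT mice (numbered 1, 5 and 6) and the 3 PYK2 KO mice (numbered 2, 3 and 4) are labelled C57BL/6, and each gave 1 library. The knockout is of the whole animal (PYK2 -/-) rather than of macrophages, no further allele, agent or treatment is labelled for either group, and the age and sex of these mice are not given in the sources used here. Libraries came from a bulk adaptation of MARS-seq, which reads the 3′ end of polyadenylated transcripts, so a count does not grow with transcript length. Fold changes are taken within a gene, and where genes are ordered, split or summed by their counts, how well each 3′ end was read also enters.

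The cytosolic ribosome is built from ribosomal RNA and about one copy of each ribosomal protein per particle, so a cell makes the large and small subunit proteins in matched amounts. Ribosomal protein mRNAs begin with a tract of pyrimidines just after the cap (the 5′ terminal oligopyrimidine or TOP motif), through which mTOR and Larp1 set how much of each mRNA is translated. Some of these proteins are also known away from the ribosome: Rpl5 and Rpl11 bind Mdm2, Rps6 is the substrate of the S6 kinases, and Rpl13a is known from a complex that silences inflammatory transcripts in interferon-treated myeloid cells. Rps29 was the gene to which the study's quantitative PCR of mouse cells was normalised.

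Of the 83 symbols, 80 are protein-coding in the GENCODE M21 annotation of GRCm38. The other 3, Rpl32l, Rpl6l and Rps4l, are annotated as processed pseudogenes (Rps4l as a transcribed one), so the symbol rule does not name a ribosomal protein gene in each case. The genes lie on 19 chromosomes, with 14 on chromosome 7, 4 on the X chromosome and at most 7 on any other.

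The start of the transcript is shown for the members the results turn on, since the TOP motif is defined at that place. Each window runs from 10 bases before the annotated start to 20 bases from it, is taken from RefSeq (GRCm38.p6) and is written along the gene's own strand. Capitals mark the longest unbroken run of C and T that reaches within 10 bases of the start.
Rps27, chr3:90213629-90213658, minus strand: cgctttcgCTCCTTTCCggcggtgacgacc
Rps24, chr14:24490668-24490697, plus strand: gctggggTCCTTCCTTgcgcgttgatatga
Rps6, chr4:86857348-86857377, minus strand: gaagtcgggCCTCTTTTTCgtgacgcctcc
Rpl7a, chr2:26910797-26910826, plus strand: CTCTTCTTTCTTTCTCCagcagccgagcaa
Rps25, chr9:44407704-44407733, plus strand: CCgacatcttagcgaggctgctgtggtcta
Rpl5, chr5:107900518-107900547, plus strand: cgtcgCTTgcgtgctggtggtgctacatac
Rps4x, chrX:102189372-102189401, minus strand: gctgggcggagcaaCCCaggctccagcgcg
The promoter table held 73 starts of 61 of the 83 genes. Rpl30, Rps29 and Rps27a had no entry. Over these 73 starts the longest such run had a median of 6 bases, against 4 over all 32851 starts of the table. A run of 8 or more bases was found at 30 starts (41.1%), against 13.7% of all starts. Only the gene's own strand was searched, and a run may extend beyond the printed window, as it does for Rpl7a and Rps25. Among the members shown, Rps27, Rps24, Rps6 and Rpl7a had a run of 9 or more bases touching the start, while Rpl5 and Rps4x had 3. For Rps24 the table held another start, with the window chr14:24490743-24490772, where the longest run was 2 bases.

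The libraries held 2857097 to 3917207 counts. Values of a gene are given in CPM, its counts adjusted for library size with the TMM factors of edgeR. Ptk2b, which encodes PYK2, had 737, 701 and 568 counts in WT and 71, 64 and 69 in PYK2 KO, or -3.15 on the log2 scale (standard error, SE, 0.10, edgeR, adjusted p = 1.02e-11). Macrophage markers summed to 29004 to 29760 CPM in WT and 30186 to 31178 CPM in PYK2 KO, with none of the 8 called, and the part of this difference in the ribosomal protein values was not tested. Erythroid markers were at 0 in every library, as were Cd3e and Cd3d of T cells and Flt3 and Zbtb46 of dendritic cells. The 4 T cell markers together reached at most 0.689 CPM in a library. The 4 dendritic cell markers summed to 2.44 to 4.83 CPM in WT and 2.67 to 3.45 CPM in PYK2 KO. The 5 B cell markers summed to 368 to 399 CPM in WT and 335 to 378 CPM in PYK2 KO, most of it Ighm with a mean of 347 CPM over the 6 libraries, while Cd79a and Ms4a1 were at 0. Neutrophil and promyelocyte markers summed to 142 to 195 CPM in WT and 151 to 254 CPM in PYK2 KO.

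Summed over all 83 genes, ribosomal protein transcripts took a slightly larger share of the counts in every PYK2 KO library than in any WT library. The share was 7.59, 7.85 and 7.89% in WT mice 1, 5 and 6 and 8.22, 7.92 and 8.28% in PYK2 KO mice 2, 3 and 4. The means were 7.78% ± 0.165 (SD, n = 3 mice) and 8.14% ± 0.192 (SD, n = 3 mice), a ratio of 1.05. The gap between WT mouse 6 and PYK2 KO mouse 3, the nearest pair, was small beside the SD of either group. In that pair Rpl7a held 1565 of 2857097 counts in WT mouse 6 and 3710 of 2889921 in PYK2 KO mouse 3. That difference is larger than the gap, so without Rpl7a the groups would overlap. The low value of Rpl7a in WT mouse 6 is described below. After scaling with TMM factors (CPM) the ratio was 1.04 and the groups overlapped, since WT mouse 5 stood at 79713 CPM and PYK2 KO mouse 3 at 78897 CPM. In bulk RNA, fewer cells of a type and less RNA per cell cannot be told apart. The macrophage marker sum also lay higher in each PYK2 KO library than in each WT library, by the values above, and its part in this result was not tested. Cell cycle markers, 15 of 15 tested and none called, summed to 1246 to 1495 CPM in WT and 1386 to 1502 CPM in PYK2 KO, so the groups overlapped. The difference in the share was 0.363 percentage points, spread over 64 genes that were higher and 18 that were lower.

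Both subunits gave the same picture. Large subunit genes took 4.38, 4.56 and 4.59% of the counts in WT and 4.78, 4.61 and 4.76% in PYK2 KO, with means of 4.51% ± 0.114 and 4.72% ± 0.0947 (SD, n = 3 mice each). For the small subunit the shares were 3.21, 3.28 and 3.31% in WT and 3.43, 3.31 and 3.52% in PYK2 KO, with means of 3.26% ± 0.0516 and 3.42% ± 0.105 (SD, n = 3 mice each). In both subunits WT mouse 1 was the lowest library, and PYK2 KO mouse 3 was the lowest of its group. Without Rpl7a the large subunit shares of WT mouse 6 and PYK2 KO mouse 3 would overlap as well. The ratio of large to small subunit counts was 1.37, 1.39 and 1.39 in WT and 1.39, 1.39 and 1.35 in PYK2 KO, or 1.38 ± 0.0137 and 1.38 ± 0.0240 (SD, n = 3 mice each). The balance of the subunits thus differed between the groups by less than the spread between mice.

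**Figure D1:**
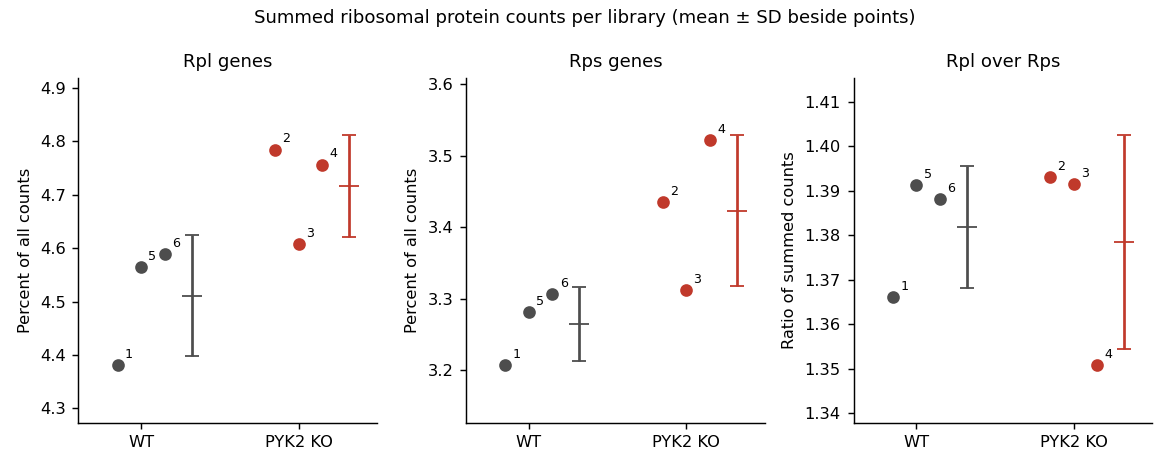
Share of all counts taken by the large subunit genes (left) and the small subunit genes (middle), in percent, and the ratio of their sums (right), with 1 point per library numbered by mouse and the mean ± SD (n = 3 mice) beside each group; the vertical axes do not start at 0. Each PYK2 KO library lies above each WT library in both shares, by 4.61 against 4.59% at the nearest for the large subunit, and the ratios overlap. The large subunit order at that nearest pair rests on Rpl7a, which was low in WT mouse 6.

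Gene by gene, 78 of the 83 passed the filter on low counts (46 large and 32 small) and entered the comparison of the genotypes, which was fitted over all 9815 genes tested (quasi-likelihood test of edgeR, p-values adjusted by the Benjamini-Hochberg method). Of these 78, 1 was called at an adjusted p-value under 0.05, Rps27, which rose in PYK2 KO BMDMs. Over all genes 0.255% were called, 11 higher and 14 lower in PYK2 KO. That number of 25 genes became 14 without PYK2 KO mouse 4, 15 without PYK2 KO mouse 2 and 15 without WT mouse 5. No large subunit gene was called in this fit, though without the filter on low counts edgeR called Rpl5 and Rpl30. With DESeq2 or limma's voom no gene of either subunit was called.

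Most members nevertheless lay on the higher side in PYK2 KO. An unadjusted p-value under 0.05 was found for 16 members (20.5%), against 6.02% of all genes tested. All 16 were higher in PYK2 KO, a direction and level reached by 3.39% of all genes tested. They comprised 7 large subunit genes (among them Rpl5, Rpl30, Rpl27 and Rpl37) and 9 small subunit genes (among them Rps25, Rps27, Rps24 and Rps27a). The log2 fold change was above 0 in 60 of the 78 (76.9%), against 50.5% of all genes tested. Its median was 0.08 over the members, 0.08 for the large and 0.07 for the small subunit, against 0.002 over all genes, and it ran from -0.22 (Rpl10) to 0.83 (Rps25). In 13 members (16.7%) the 3 PYK2 KO values all lay above the 3 WT values, and in none all below. Of all 9815 genes tested, 10.2% had groups that did not overlap in either direction, 507 with PYK2 KO above and 498 with it below. Of these 13, 10 were of the large subunit, among them Rpl3, Rpl5, Rpl22, Rpl30 and Rpl37, and 3 of the small, among them Rps27 and Rps27a.

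The changes were small, and for most members the data bound them closely. The 95% interval of the fold change lay within 1.5-fold in either direction for 67 of the 78 (85.9%), against 69.2% of all genes tested. At a mean of 500 CPM or more this held for 96.3% of members and 97.9% of other genes. Under 500 CPM it held for 62.5% of members and 68.3% of other genes, so at like level members were not bounded more closely. The 11 with a wider interval were Rpl5, Rpl7a, Rpl30, Rpl32l, Rpl39, Rps4x, Rps10, Rps15a, Rps24, Rps25 and Rps27. Rpl10, a late-joining protein of the large subunit that is needed to release assembly factors, had the lowest fold change, with 768, 564 and 552 CPM in WT and 557, 557 and 510.1 CPM in PYK2 KO. WT mouse 1 alone stood above the others, and the log2 fold change of -0.22 (SE 0.11, adjusted p = 0.870) did not pass the test. It was -0.04 without WT mouse 1 and -0.30 without WT mouse 6.

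**Figure D2:**
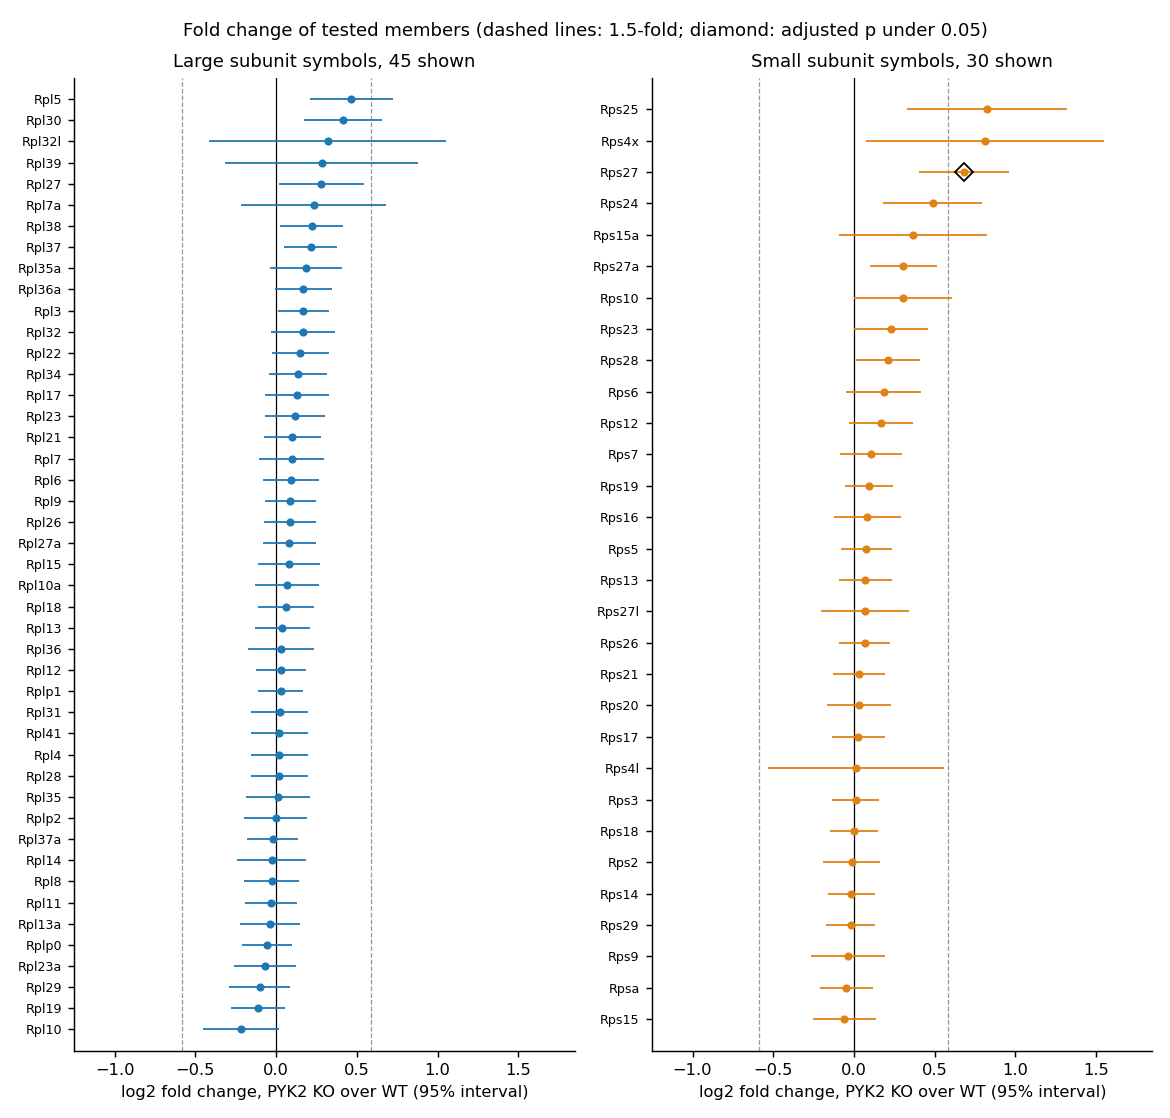
Log2 fold change, PYK2 KO over WT, with its 95% interval from edgeR for 45 of the 46 large (left) and 30 of the 32 small subunit symbols tested (right). The remaining tested members are not shown. Dashed lines are at 1.5-fold, and a diamond marks a gene with an adjusted p-value under 0.05. Rps27 carries the diamond, and the intervals of 64 genes shown stay between the dashed lines.

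Single libraries weighed on these counts. WT mouse 1 held the lowest value of 38 of the 78 members (48.7%), whereas it held the lowest value of 18.1% of all genes tested. PYK2 KO mouse 4 held the highest value of 33 members (42.3%), against 20.7% of all genes tested. Without WT mouse 1, 50 members were above 0, the median log2 fold change was 0.05 and 13 members had an unadjusted p-value under 0.05. Without PYK2 KO mouse 4, 67 members were above 0, the median was 0.07 and 9 had an unadjusted p-value under 0.05. The share of counts from mitochondrially encoded genes was 0.0374 to 0.0458% over the 6 libraries, 0.0383% in WT mouse 1 and 0.0455% in PYK2 KO mouse 4, and its part in these counts was not tested.

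Rps27, a zinc-finger protein on the surface of the small subunit, lies at chr3:90212522-90213651 on the minus strand. It was counted at 296, 261 and 252 CPM in WT mice 1, 5 and 6 and at 372, 369 and 554 CPM in PYK2 KO mice 2, 3 and 4. All PYK2 KO values stood above all WT values, and PYK2 KO mouse 4 stood well above the other libraries of its group. The means were 269 ± 23.1 CPM and 432 ± 106 CPM (SD, n = 3 mice each), a 1.60-fold level with a 95% interval from 1.32 to 1.95. The log2 fold change was 0.68 (SE 0.13, adjusted p = 0.043 with edgeR). The call was lost without WT mouse 5 (adjusted p = 0.382), without WT mouse 6 (0.204) or without PYK2 KO mouse 4 (0.093), where the log2 fold change was 0.46. Adjusted p-values were 0.032 to 0.382 over the 6 fits that left out 1 library and 5.65e-11 to 0.447 over the other alternatives, the lowest without a filter and the highest with DESeq2. A total of 8 pseudogenes share a stretch of its 3′ end, but they held 16 counts in all, against 722 to 1868 counts of Rps27 per library.

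The other 5 of the 6 members with the smallest unadjusted p-values were Rpl5, Rpl30, Rps25, Rps24 and Rps27a, and none of them passed the adjusted threshold. Rps24, which like Rps19 and Rpl5 is mutated in Diamond-Blackfan anaemia, had 649.8, 431 and 426 CPM in WT and 615, 667 and 833 CPM in PYK2 KO. WT mouse 1 lay within the range of the PYK2 KO libraries, so the groups overlapped, and the log2 fold change was 0.49 (SE 0.14, adjusted p = 0.457). Rps25, a small subunit protein used in initiation at some internal entry sites of viral RNA, had 168, 87.5 and 90.7 CPM in WT and 133, 206 and 278 CPM in PYK2 KO. Its log2 fold change of 0.83 (SE 0.23, adjusted p = 0.400) was the highest of the members, and again WT mouse 1 stood with the PYK2 KO libraries. With 1 library left out the log2 fold change of Rps25 ran from 0.54 to 1.21. Without WT mouse 1 both Rps25 and Rps24 were called by edgeR. Rpl30, a large subunit protein, had 189, 177 and 241 CPM in WT and 241, 260 and 304 CPM in PYK2 KO, with WT mouse 6 and PYK2 KO mouse 2 at nearly the same value. The log2 fold change of Rpl30 was 0.41 (SE 0.11, adjusted p = 0.385).

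Rps4x, the small subunit gene on the X chromosome, had the widest spread of all tested members, a coefficient of variation of 64.2% over the 6 libraries. Its values were 31.5, 18.1 and 21.3 CPM in WT and 17.9, 33.8 and 73.0 CPM in PYK2 KO. PYK2 KO mouse 2 was lower than each WT library and PYK2 KO mouse 4 stood far above the rest, and the log2 fold change of 0.81 (SE 0.35, adjusted p = 0.769) fell to 0.10 without the latter. Rps15a, another small subunit gene, was counted at 20.6, 27.0 and 22.3 CPM in WT and 17.9, 35.2 and 37.1 CPM in PYK2 KO, with a coefficient of variation of 29.7%. In Rps24, Rps25 and Rps4x alike, WT mouse 1 was the highest of the WT libraries and PYK2 KO mouse 2 the lowest of the PYK2 KO libraries.

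**Figure D3:**
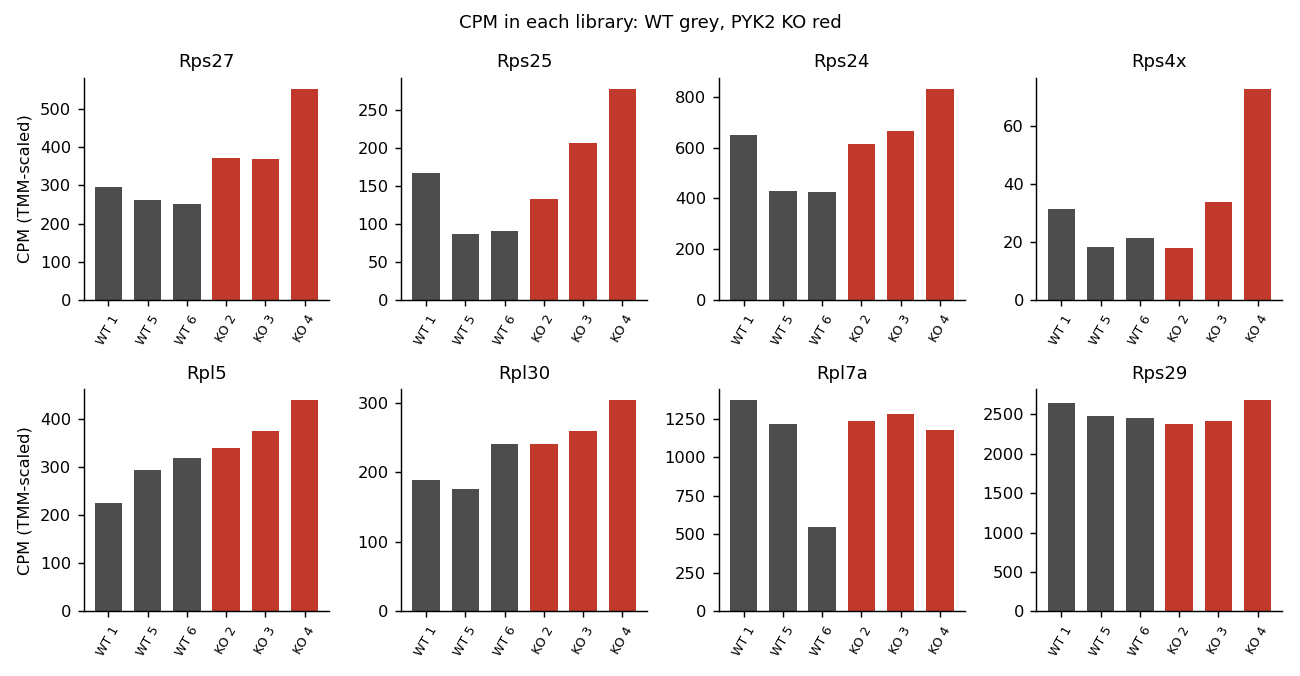
Bars give the TMM-scaled CPM of 8 members in each of the 6 libraries, WT in grey and PYK2 KO in red, each panel with its own axis from 0. PYK2 KO mouse 4 is the highest library in Rps27, Rps25, Rps24, Rps4x, Rpl5 and Rpl30, WT mouse 6 is low in Rpl7a at 546 CPM, and Rps29 stays between 2385 and 2684 CPM.

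At the other end of the scale stood members that hardly varied. Rps14 had the smallest coefficient of variation, 1.65% over the 6 libraries, and Rpl12 at 3.01%, Rps18 at 3.09% and Rps3 at 3.41% were also low. Rps14, a small subunit protein, had 1918, 1920.4 and 1931 CPM in WT and 1949, 1857 and 1902 CPM in PYK2 KO. Its log2 fold change was -0.02, with a 95% interval from -0.16 to 0.13. Over the tested members the median coefficient of variation was 8.56%, against 12.0% over all genes tested. At a mean of 500 CPM or more it was 7.23% in members and 6.22% in other genes. Under 500 CPM it was 14.8% and 12.3%, so at like level the members were not the steadier ones. Among the most counted large subunit genes, Rpl41 had 3488, 3405 and 3515 CPM in WT and 4015, 3412 and 3126 CPM in PYK2 KO, and Rpl4 had 1777 to 2185 CPM in WT and 2004 to 2145 CPM in PYK2 KO, both with overlap and a log2 fold change of 0.02. Rpl15, the least counted after Rpl32l and Rpl39 of the large subunit genes tested, had 74.7, 82.5 and 77.1 CPM in WT and 80.5, 83.8 and 83.3 CPM in PYK2 KO, a log2 fold change of 0.08 (SE 0.09, adjusted p = 0.954).

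The fold changes were not even across the range of counts. Members with a mean of at least 500 CPM, a value chosen after seeing the data, numbered 54, of which 37 (68.5%) lay above 0 and 6 had an unadjusted p-value under 0.05, with a median log2 fold change of 0.03. Of the 24 members under 500 CPM, 23 (95.8%) lay above 0 and 10 had an unadjusted p-value under 0.05, with a median of 0.24. Among the other genes tested, 50.5% of those under 500 CPM and 43.6% of those at or above it lay above 0, and 5.88% and 7.05% had such a p-value. Summed, the 24 less counted members had 5023, 5120.5 and 5445 CPM in WT and 5806, 5981 and 6775 CPM in PYK2 KO, a ratio of 1.19 without overlap. The 54 more counted members summed to 70507, 74589.5 and 73226 CPM in WT and 77492, 72912 and 74583 CPM in PYK2 KO, a ratio of 1.03 with overlap. Without PYK2 KO mouse 4, 22 of the 24 lay above 0, with a median of 0.14, and 6 of the 24 and 3 of the 54 had an unadjusted p-value under 0.05. Without WT mouse 5 that number was 6 of the 24, and without WT mouse 1 the median of the 24 was 0.15. The median of the 54 was 0.01 without WT mouse 1 or PYK2 KO mouse 2, 0.05 without WT mouse 6 or PYK2 KO mouse 3 and 0.06 without WT mouse 5.

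**Figure D4:**
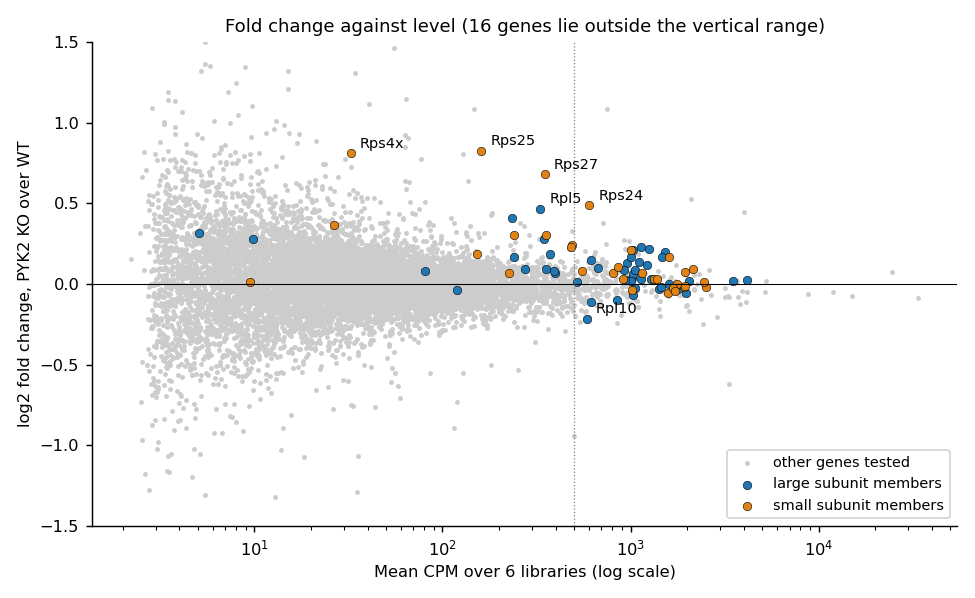
Each point is 1 gene tested, placed by its mean CPM over the 6 libraries (log scale) and its log2 fold change, PYK2 KO over WT, with other genes in grey, large subunit members in blue and small subunit members in orange; the dotted line is at 500 CPM and 16 genes lie outside the vertical range. Members on the right gather near 0, with a median of 0.03, and those on the left lie mostly above 0, with a median of 0.24.

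Rpl5 and Rpl11 travel with 5S ribosomal RNA as one particle that can bind Mdm2 and so raise p53. Rpl5 (chr5:107900502-107909005, plus strand) had 224, 293 and 319 CPM in WT and 339, 375 and 439 CPM in PYK2 KO, without overlap. Its log2 fold change was 0.47 (SE 0.12, adjusted p = 0.324). Its partner Rpl11 had 1322, 1499 and 1486 CPM in WT and 1418, 1380.5 and 1414 CPM in PYK2 KO, with all PYK2 KO values inside the WT range. Its log2 fold change was -0.03, with a 95% interval from -0.19 to 0.13, which does not overlap that of Rpl5, 0.21 to 0.73. The difference between both genes was not tested. Mdm2, at 92.8 to 143 CPM in WT and 111 to 118 CPM in PYK2 KO, had a log2 fold change of -0.05 (adjusted p = 0.991).

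The proteins of the stalk, Rplp0, Rplp1 and Rplp2, bring elongation factors to the ribosome. Rplp0 had 2053, 1988 and 2005 CPM in WT and 1979, 1790.3 and 2035 CPM in PYK2 KO, and Rplp1 had 3957, 4289.6 and 4147 CPM in WT and 4291, 4013 and 4328 CPM in PYK2 KO. Rplp2 had 1615, 1715 and 1486 CPM in WT and 1784, 1637 and 1389 CPM in PYK2 KO. In each of the 3 genes the groups overlapped, with log2 fold changes of -0.06, 0.03 and -0.002. The interval of Rplp1 reached from -0.11 to 0.17, that of Rplp0 from -0.21 to 0.10 and that of Rplp2 from -0.20 to 0.19.

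Rps27a encodes a small subunit protein fused to ubiquitin, which is cut off and feeds the ubiquitin pool. Its values were 273, 343 and 340.1 CPM in WT and 382, 376 and 423 CPM in PYK2 KO, without overlap, and its log2 fold change was 0.31 (SE 0.10, adjusted p = 0.540). Rps6, phosphorylated by the S6 kinases downstream of mTOR, had 167, 124 and 135 CPM in WT and 150.4, 154 and 182 CPM in PYK2 KO. WT mouse 1 was above 2 of the PYK2 KO libraries, and the log2 fold change was 0.19 (SE 0.11, adjusted p = 0.898). With 1 library left out it ran from 0.09 without WT mouse 5 or PYK2 KO mouse 4 to 0.33 without WT mouse 1. Fau, whose product is likewise a ribosomal protein made as a fusion, to a ubiquitin-like protein, but whose symbol the rule does not take, had a log2 fold change of -0.02.

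None of the following members, chosen for a role outside the ribosome or in disease, passed the test. Rpsa, known also as the laminin receptor precursor, had 1670.4, 1830.4 and 1769.8 CPM in WT and 1851, 1669 and 1584 CPM in PYK2 KO. Rps3, which also acts in DNA repair, had 2369, 2497 and 2499 CPM in WT and 2580.2, 2363 and 2482 CPM in PYK2 KO. Both genes overlapped between the groups, with log2 fold changes of -0.05 and 0.01. Rpl13a, the member of the interferon-dependent silencing complex, had 133, 115 and 115 CPM in WT and 121, 121 and 113 CPM in PYK2 KO, a log2 fold change of -0.04. Rps19, the gene most often mutated in Diamond-Blackfan anaemia, had 2023, 2021 and 2176 CPM in WT and 2274, 2142 and 2219 CPM in PYK2 KO, a log2 fold change of 0.09. Rpl22, needed for the development of some T cells, had 539, 593 and 612 CPM in WT and 633, 613 and 688 CPM in PYK2 KO. The groups of Rpl22 did not overlap, yet the values of WT mouse 6 and PYK2 KO mouse 3 nearly met, and the log2 fold change was 0.15 (SE 0.08, adjusted p = 0.894). Its paralog Rpl22l1, outside the rule, had 4.32, 12.0 and 13.6 CPM in WT and 18.2, 15.5 and 14.5 CPM in PYK2 KO, a log2 fold change of 0.73 (adjusted p = 0.710).

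Symbols that end in l mark paralogs or, for Rpl32l, Rpl6l and Rps4l, annotated pseudogenes. Some of the paralogs replace the parent protein in particular tissues. Rpl10l and Rpl39l are known from the testis, and Rpl3l from heart and skeletal muscle. Rpl10l had 0 counts in every library, which allows up to 3 counts per library by counting error. Rpl39l had 7, 2 and 1 counts in WT and 0, 3 and 7 in PYK2 KO, and Rpl3l had 1, 0 and 0 in WT and 0, 2 and 1 in PYK2 KO. The pseudogene Rpl6l had at most 2 counts in a library. These 4 genes and Rpl24 were the 5 members that did not pass the filter, and no fold change is given for them. Among their parents, Rpl10 had 510.1 to 768 CPM over the 6 libraries, Rpl3 had 913 to 981 CPM in WT and 1036 to 1106 CPM in PYK2 KO, and Rpl6 had 331 to 353 CPM in WT and 342 to 386 CPM in PYK2 KO.

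Rps27l, the paralog of Rps27 and a target of p53, had 168, 235 and 257 CPM in WT and 224, 208 and 258 CPM in PYK2 KO. Its groups overlapped throughout, and its log2 fold change of 0.07 had a 95% interval from -0.20 to 0.34, below that of Rps27. The difference between Rps27 and Rps27l was not tested. Rps4l, an annotated pseudogene, had 7.02 to 13.1 CPM over the 6 libraries and a log2 fold change of 0.01, against 0.81 for Rps4x. Rpl32l, also an annotated pseudogene, had 3.05 to 6.97 CPM, while Rpl32 had 1188, 1479 and 1489 CPM in WT and 1563, 1433 and 1666 CPM in PYK2 KO, a log2 fold change of 0.17 that was 0.07 without WT mouse 1. Rpl39 itself was low, with 20, 45 and 26 counts in WT and 30, 29 and 42 in PYK2 KO, so its 95% interval ran from -0.32 to 0.88.

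Copies of ribosomal protein mRNAs are scattered over the genome as processed pseudogenes, and reads from the 3′ end can match both. Of the 80 coding members, 71 shared at least one 50-base stretch of the last 400 bases of their transcripts with an annotated pseudogene of the table, and for the median member 39.6% of such stretches were shared. In all, 875 pseudogenes shared a stretch. They held 0.131 to 0.155% of the counts per library, compared with 7.59 to 8.28% for the members, and adding these counts to the members left Rps27 as the 1 member called and the median at 0.08. How reads with several matches were counted is not given in the sources used here, so the values of sharing members are uncertain to that extent.

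Some members had a well-counted copy of this kind. Rps10, which shares 44.0% of its 3′ stretches, had 168, 216 and 263 CPM in WT and 253, 223 and 320.3 CPM in PYK2 KO, while Rps10-ps1 held 2211 counts over the 6 libraries. Rpl13a came with 1320 counts of Gm11478, Rps29 with 2190 counts of Gm14303 and Rpl5 with 752 counts of Gm15500. Rpl24, a large subunit gene at chr16:55966275-55971435 on the plus strand, had 5, 6 and 2 counts in WT and 4, 4 and 4 in PYK2 KO, whereas the pseudogenes that share 86.6% of its 3′ stretches held 29, 33 and 89 counts in WT and 35, 29 and 28 in PYK2 KO. Over the shared stretches, reads of Rpl24 and of these copies cannot be told apart.

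Rpl7a, a large subunit gene at chr2:26910764-26913318 on the plus strand that was singled out after its values were seen, differed in a single library. Its values were 1373, 1219 and 546 CPM in WT and 1239, 1279 and 1174 CPM in PYK2 KO. WT mouse 6 alone was low, and the other 5 libraries spanned 1174 to 1373 CPM. The log2 fold change of 0.23 had a standard error of 0.21 and did not pass the test (adjusted p = 0.937). In WT mouse 6 the pseudogenes assigned to Rpl7a held 121 counts, against 52 to 109 in the other libraries, and Rpl7a itself held 1565 counts in that library. Whether reads matching several places had a part in the low value was not tested. Rpl7a shares 86.0% of its 3′ stretches with 67 pseudogenes.

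Rps29, the gene used for normalising quantitative PCR of mouse cells, lies at chr12:69157722-69159186 on the minus strand. It was counted at 2644, 2483 and 2460.03 CPM in WT and 2385, 2413 and 2684 CPM in PYK2 KO. The groups overlapped, with the highest value in PYK2 KO mouse 4 and the next in WT mouse 1. The log2 fold change was -0.02 (SE 0.07, adjusted p = 0.993), and the 95% interval of the fold ran from 0.886 to 1.10. Its coefficient of variation was 4.93%.

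Members also serve as usual reference genes for quantitative PCR, 4 of them here, and beside 11 others they were among the steadier ones. Rps18 had a coefficient of variation of 3.09%, Rplp0 of 4.80%, Rps29 of 4.93% and Rpl13a of 5.97%. Gusb had 2.90% and Actb 5.29%, whereas Ppia had 24.2%, B2m 67.6% and Gapdh 105%. None of the 15 was called by edgeR, and B2m was the 1 with an unadjusted p-value under 0.05, at 966, 262 and 212 CPM in WT and 521, 1041 and 1513 CPM in PYK2 KO (log2 fold change 1.09, adjusted p = 0.700). Gapdh fell into separate levels that did not follow genotype, with 26.4, 968 and 995 CPM in WT and 21.4, 18.3 and 986 CPM in PYK2 KO. The cause of these levels was not tested, so its coefficient of variation may not describe the gene's expression.

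**Figure D5:**
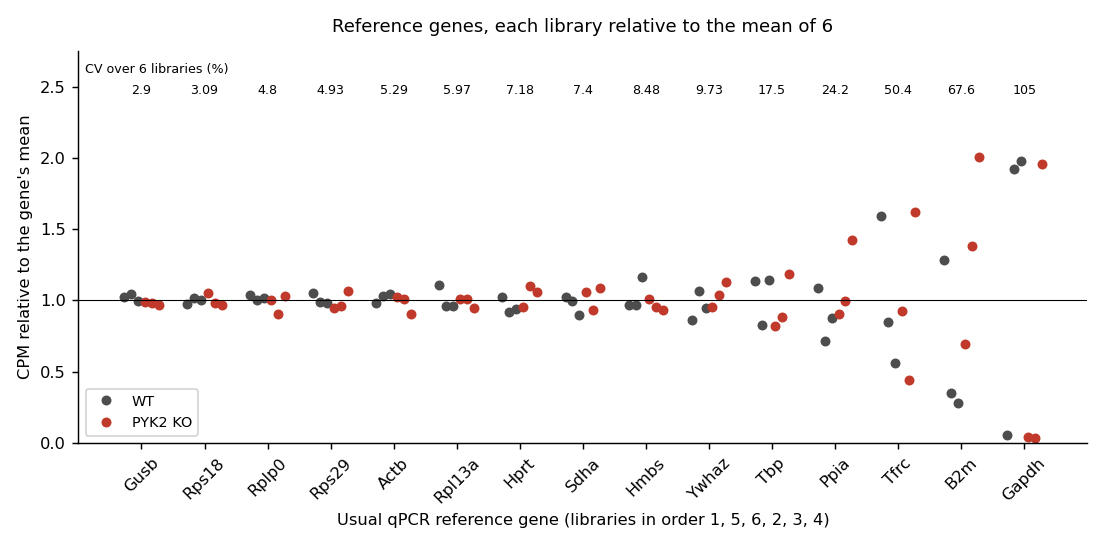
CPM of 15 usual reference genes relative to each gene's mean over the 6 libraries, 1 point per library in the order of mice 1, 5, 6 (WT, grey) and 2, 3, 4 (PYK2 KO, red), with the coefficient of variation in percent above each gene. Rps18, Rplp0, Rps29 and Rpl13a stay close to 1, while B2m and Gapdh spread widely.

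Genes that act with the ribosomal proteins were described from lists of general knowledge, and no gene of these lists was called by edgeR, DESeq2 or limma's voom after the filter on low counts (without it edgeR called 2, Gtpbp4 and Rpf2). The 6 cytosolic ribosomal proteins whose symbols fall outside the rule gave a median of 0.04 on the log2 scale, with 1 at an unadjusted p-value under 0.05, Rpl22l1. Together these 6 took 0.435, 0.432 and 0.424% of the counts in WT and 0.448, 0.430 and 0.439% in PYK2 KO, so here the groups overlapped. Rack1, the signalling scaffold on the small subunit, had 2092 to 2160.4 CPM in WT and 2165 to 2234 CPM in PYK2 KO. For 21 translation factors and other transcripts with a TOP start the median was 0.05, and none had an unadjusted p-value under 0.05. Eef1a1, which carries aminoacyl-tRNA to the ribosome, had a log2 fold change of 0.14, Eef2, the translocase, -0.05, and Pabpc1, the poly(A)-binding protein, 0.09. The median of the TOP list lay above the median of all genes by less than the members did.

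None of the tested genes in the lists of those that make or steer ribosomes had an adjusted p-value under 0.05 with edgeR. For RNA polymerase I and its factors, 14 of 15 were tested, 4 above 0 and 10 below, with a median of -0.04 and none at an unadjusted p-value under 0.05. For ribosome assembly factors, 61 of 64 were tested, 31 above 0 and 30 below, with a median of 0.005. At an unadjusted p-value under 0.05 there were 3 of the 61, a smaller share than the 6.02% of all genes tested: Fbl, the methyltransferase of ribosomal RNA (-0.37), Dkc1, the pseudouridine synthase (0.53), and Gtpbp4, a GTPase of large subunit assembly (1.10). Gtpbp4 had 10.4, 3.90 and 3.84 CPM in WT and 5.75, 12.4 and 21.9 CPM in PYK2 KO. As in Rps25, WT mouse 1 was the highest in its group and PYK2 KO mouse 4 the highest of all.

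Among 22 regulators of ribosomal protein mRNA translation the median was -0.05, with 6 above 0 and 16 below. At an unadjusted p-value under 0.05 there were 3, all lower in PYK2 KO, a direction and level reached by 2.63% of all genes tested. These were Rps6kb2, the second S6 kinase (-0.31, adjusted p = 0.724), Myc, a driver of ribosomal gene transcription (-0.39, adjusted p = 0.784), and Maf1, the repressor of RNA polymerase III (-0.19, adjusted p = 0.810). Myc had 30.5, 34.0 and 42.9 CPM in WT and 26.5, 33.1 and 22.2 CPM in PYK2 KO, with overlap at WT mouse 1 and PYK2 KO mouse 3. Maf1 had 197, 167 and 167 CPM in WT and 155, 153 and 158 CPM in PYK2 KO, without overlap. Larp1, which binds the TOP motif, had a log2 fold change of -0.01, and Mtor had -0.18 (adjusted p = 0.911). For 14 of 16 genes of ribosome stress and quality control the median was -0.02, and none had an unadjusted p-value under 0.05.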

How the data were processed

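Bulk RNA-seq of BMDMs covered 3 WT and 3 PYK2 KO mice. The values deposited are raw whole-number counts for each gene, which the authors produced from MARS-seq libraries with UTAP, and the submitters' processing notes name cutadapt, STAR and mm10. Whether molecular identifiers were collapsed and how multiply matching reads were counted is not given in the sources used here, so limits cover counting error only. The 6 columns were assigned to mice through their names, and no column of another sample was used.

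For testing, edgeR 4.0.16 in R 4.3.3 was used with TMM factors, the filterByExpr filter and the quasi-likelihood F test of genotype. P-values were adjusted by the Benjamini-Hochberg method over all 9815 genes tested and called under 0.05. The SE and 95% interval follow from the F statistic and the fold change. CPM are counts scaled by TMM, and shares are percent of a library's raw counts. No pair of libraries within a group was a duplicate (chi-square per degree of freedom at least 2.22). Alternatives were DESeq2 1.42.0, limma 3.58.1 (voom), other normalizations and filters, widened or narrowed member lists, and leaving out each library in turn. Adding the counts of pseudogenes that share a stretch of 50 bases within the last 400 to the members was chosen after seeing the data. The edgeR script was tested on simulated data. Gene positions and biotypes came from GENCODE M21 by symbol, and starts from RefSeq.

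The members and lists were chosen with earlier results of these data known. The text names Rps29, the stalk, 5S particle, ubiquitin fusion and S6 kinase genes, Rpsa, Rps3, Rpl13a, Rpl22, Rps19, symbols in l with their parents, the 3 highest and lowest of each subunit by mean CPM, the 6 smallest p-values and the 5 largest and smallest coefficients of variation. Some genes that enter the counts are not reported here by name. Rpl7a, Rpl24, Rps10, the members listed by their p-values or intervals, and the genes named from the lists were chosen after their values were seen.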

Additional observations from a re-analysis of the deposited data

How the results depend on the processing

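No paired analysis was possible because no replicate number occurs in both genotypes (1, 5 and 6 in WT, 2, 3 and 4 in PYK2 KO). The log2 fold change of Ptk2b, the median over the members, the number of members within 1.5-fold and the summed share kept their direction in each alternative run. The ratio of large to small subunit counts, taken as PYK2 KO over WT, lay on either side of 1 by less than its spread. With 1 library left out the values ran from -3.19 to -3.11 for Ptk2b, 0.05 to 0.09 for the median and 65 to 68 for the number within 1.5-fold. Taken as PYK2 KO over WT, the summed share then ran from 1.03 to 1.06 and the ratio of large to small subunit counts from 0.992 to 1.01.

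The number of ribosomal protein genes called was 0 with library totals only (Rps27, adjusted p = 0.062), 0 with DESeq2 (0.447) and 0 with voom (0.051). Without a filter it was 6 (Rpl5, Rpl30, Rps4x, Rps24, Rps25 and Rps27), and 159 genes of all were called, with 2 genes of the ribosome lists, Gtpbp4 and Rpf2. With 1 library left out, 0 to 3 members were called, 3 without WT mouse 1 (Rps24, Rps25 and Rps27), and of all genes 14 to 34. The cause of these shifts was not tested.

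Of 264 log2 fold changes of named members under the other alternatives, 253 kept their direction and side of the threshold and 3 changed sign: Rplp2 with totals only (0.00435), Rps4l with voom (-0.0249) and Rps18 without a filter (-0.00383). With 1 library left out, the fold changes of 14 named members changed sign. They ran from -0.0879 to 0.000121 for Rpl11, -0.0731 to 0.0361 for Rpl13a, -0.0276 to 0.640 for Rpl39, -0.0708 to 0.0722 for Rpl4, -0.0863 to 0.0982 for Rpl41, -0.00253 to 0.0606 for Rplp1, -0.0867 to 0.0913 for Rplp2, -0.0337 to 0.00136 for Rps14, -0.0355 to 0.0239 for Rps18, -0.0941 to 0.194 for Rps27l, -0.0764 to 0.0133 for Rps29, -0.0198 to 0.0435 for Rps3, -0.263 to 0.190 for Rps4l and -0.112 to 0.00283 for Rpsa. At this depth 5 members, Rpl24, Rpl39l, Rpl6l, Rpl3l and Rpl10l, with 0 to 25 counts over the 6 libraries, were below the filter.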
